A study of Homo sapiens with 4 samples.

Results

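The genes described here are 60 that act in the G2 phase of the cell cycle and in mitosis, from the kinases that start division to the proteins that cut the dividing cell apart. They were taken by symbol from a list, and 59 of the 60 had a probe set of their own among the 18417 genes that the arrays read. CENPA was not read as a gene, because its probe set also carries the symbol SLC35F6. Where a gene had several probe sets, the brightest over the 4 arrays stood for it.

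Cells in G2 build up cyclin B, which binds the kinase CDK1 and drives entry into mitosis. PLK1 and the Aurora kinases then mature the spindle poles, kinesins and other microtubule proteins build the spindle, and kinetochores tie each chromosome to it. A checkpoint holds the cell until every kinetochore is attached, after which the anaphase-promoting complex (APC/C), a ubiquitin ligase, releases the sister chromatids and ends CDK1 activity. Most of these genes are transcribed only in dividing cells, late in the cycle, under the MuvB complex with MYBL2 and FOXM1, so their summed RNA in a culture is commonly read as a mark of proliferation. LNCaP, a prostate cancer line that depends on androgen for growth, slows in medium stripped of steroids.

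Each of the 4 arrays came from a separate condition of human prostate cancer cells. LNCaP cells had spent 24 h in hormone-free medium, without phenol red and with 2.5% serum stripped on charcoal. LTAD cells descend from LNCaP through prolonged withdrawal of androgen and were grown with 10% stripped serum. They were hybridised untransfected, after a control siRNA (siControl) and after an siRNA against PSF (siPSF), the RNA-binding protein that SFPQ encodes. The time from transfection to harvest and the density of the cultures are unknown here, and all 4 cultures lacked added androgen as far as the labels say. With 1 array per condition there is no replicate and no test, so each difference below is between 2 arrays, its error is unknown, and precision is limited by having so few arrays. In RNA from whole cultures, fewer cells in mitosis and less RNA per mitotic cell cannot be told apart.

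Levels are log2 values after the 4 arrays were put on a common scale by quantile normalization, and a difference of 1 is 2-fold. That step matters here, because the deposited medians over all 33297 probe sets were 5.98 and 6.04 for siControl and siPSF but 6.91 and 7.20 for LNCaP and untransfected LTAD. Transfection and any batch shared by the 2 transfected arrays cannot be told apart. A level under 7.23, the median of all gene readings, is not shown to be above background, since no detection call was used, and no fold is given where the dimmer array was under it. All 59 genes reached that level in at least 1 array, and 16 were under it in untransfected LTAD, 3 in LNCaP, 2 in siPSF and 1 in siControl. SFPQ itself read 11.23 with siControl and 9.87 with siPSF, a difference of -1.37. The 5 luminal epithelial markers read between 10.59 and 12.49 in all 4 arrays, with KRT8 at 11.84 or more. Medians of the other marker lists ran from 5.49 to 5.83 for basal, 6.08 to 6.55 for stromal and 4.81 to 5.06 for immune and endothelial genes. The leukocyte marker PTPRC stayed at or under 3.62, while COL1A1 (stromal) read 7.68 to 7.99 and CD68, which is also found outside macrophages, read between 7.57 and 8.70. ACTA2, a stromal marker, read 6.44 in LNCaP, 6.26 in untransfected LTAD, 7.15 with siControl and 7.51 with siPSF, higher in both transfected arrays than in untransfected LTAD on the common scale, and whether other cells had a part in the results was not tested.

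The untransfected LTAD array stood apart from the other 3. Of the 59 genes, 58 had their lowest level there on the common scale, against 31.8% of all genes. On the deposited values 33 did, with 23 lowest in siPSF and 3 in siControl. On those values 95.7% of all genes were lower with siControl than in untransfected LTAD, and 96.3% with siPSF. On the common scale each of the other 3 arrays was at least 2-fold higher in 29 of the 59 genes, a share not counted over all genes. The median level over the 59 genes was 8.99 in LNCaP, 7.62 in untransfected LTAD, 9.09 with siControl and 8.68 with siPSF. By these medians siPSF LTAD lay under siControl LTAD and LNCaP by a small margin and over untransfected LTAD by a large one. Gene by gene the order of siPSF and LNCaP varied. PLK1 read 11.07 with siPSF and 10.61 in LNCaP on the common scale, while ANLN read 8.29 and 9.60. PLK1 too lay below LNCaP with siPSF on the deposited values, at 10.71 against 10.91. ZWINT, a kinetochore protein, was the gene not lowest in untransfected LTAD on the common scale, and read lowest with siPSF.

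**Figure D1:**
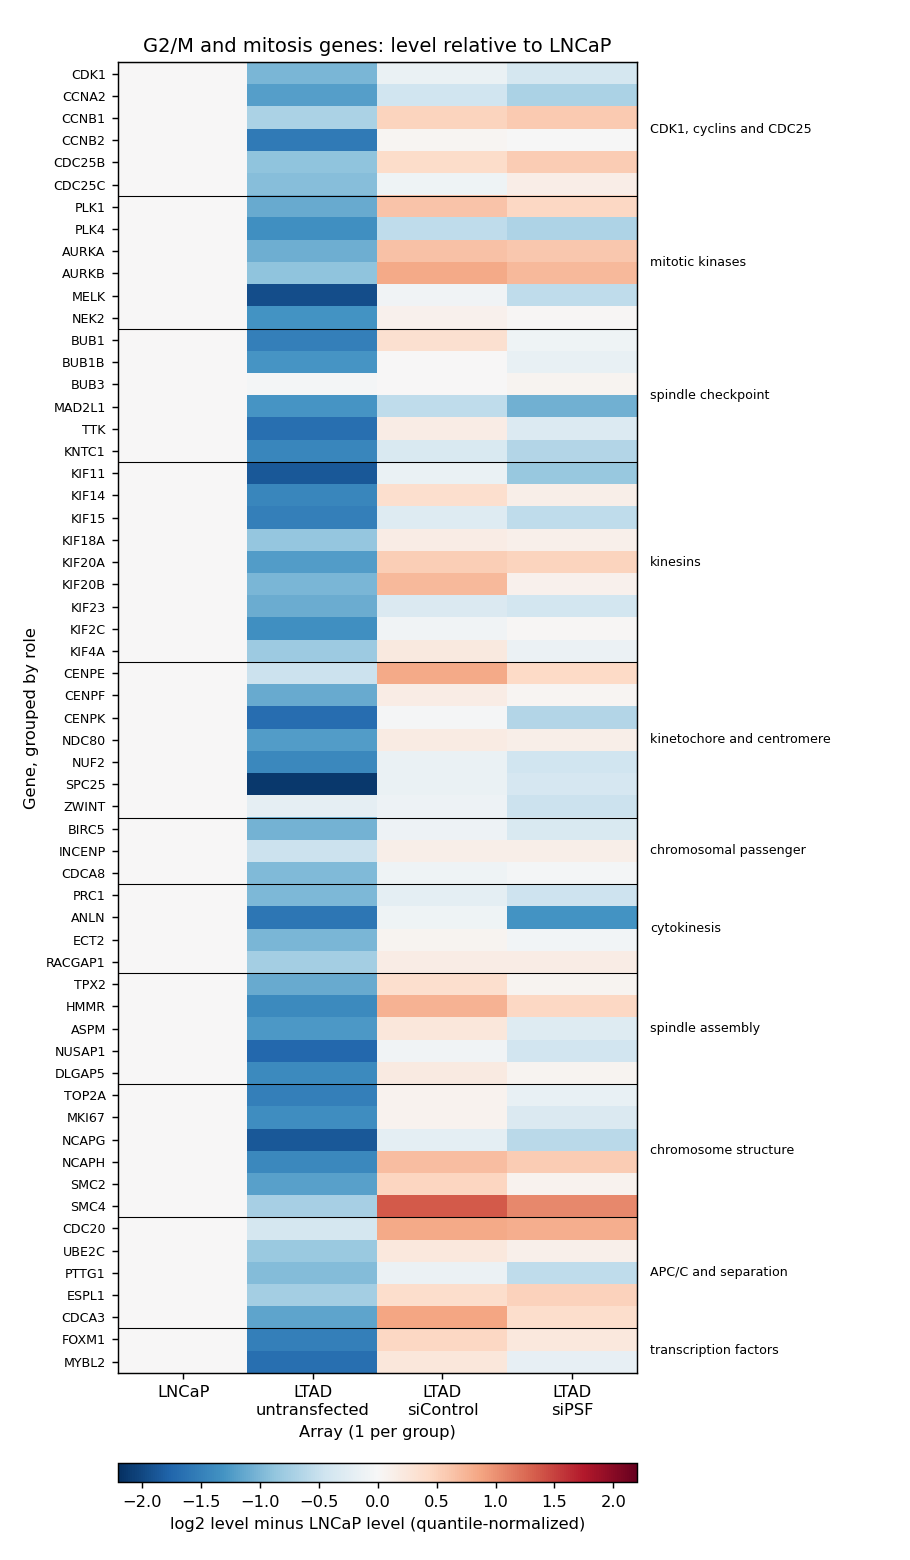
Heat map of the 59 measured genes (rows, grouped by role) over the 4 arrays (columns), coloured by the quantile-normalized log2 level minus that in LNCaP, blue for lower and red for higher. The untransfected LTAD column is blue in nearly every row, with BUB3 and ZWINT palest, while the siControl and siPSF columns stay close to LNCaP, with SMC4 the reddest (1.34 with siControl) and ANLN the bluest with siPSF. On the deposited values 54 of the 59 are below LNCaP with siControl, as are 95.7% of all genes.

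Set against LNCaP, untransfected LTAD was lower in all 59 genes, with a median difference of -1.21 where the median of all genes was 0.01. Of the 59, 40 (67.8%) were at least 2-fold lower, against 2.55% of all genes, and 0 were 2-fold higher, against 1.69%. On the deposited values the median was -0.96 against 0.26 for all genes, BUB3 turned to 0.14, and 27 genes were at least 2-fold lower. There the split of all 2-fold differences moved as well, to 598 higher and 300 lower from 311 and 469.

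Between siControl and untransfected LTAD all 59 genes were higher in the siControl array on the quantile-normalized scale, with a median of 1.41 against 0.07 for all genes. Here 45 genes (76.3%) were at least 2-fold higher, where 4.69% of all genes were, and 0 were 2-fold lower, where 3.15% were. The scale bears on this comparison. On the deposited values the median of all genes was -1.02, that of the 59 genes was 0.40, 15 of them turned to below 0 (BIRC5, BUB3, CCNA2, CDC25C, CDCA8, INCENP, KIF15, KIF18A, KIF23, KIF4A, MAD2L1, PLK4, PRC1, PTTG1 and ZWINT) and 5 were 2-fold higher, beside 76 higher and 9480 lower over all genes. With arrays centred on their medians the all-gene split was 1455 higher and 462 lower, and after scaling to the 75th percentile it was 662 and 856. Measured from the all-gene median, the 59 genes lay 1.35 above it after quantile normalization and 1.42 above it on the deposited values.

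SiPSF and siControl lay close together in most of the 59 genes. The median was -0.23 against -0.01 for all genes, 51 of 59 genes (86.4%) were below 0 where 51.9% of all genes were, 7 were above 0, and INCENP read the same in both arrays. ANLN alone (1.69% of the 59) was at least 2-fold lower, against 0.494% of all genes, and 0 were at least 2-fold higher, against 0.0923%. In 54 of the 59 genes these 2 arrays lay within 0.5 of each other, a share not counted over all genes. The standard deviation of the difference was 0.24 over the 59 genes and 0.26 over all genes, so this closeness is not shown to be particular to the list. With untransfected LTAD as the control in place of siControl the sign turned. There 58 of the 59 genes were higher with siPSF, the median was 1.15, and 36 (61.0%) were at least 2-fold higher, against 3.95% of all genes, while 0 were 2-fold lower, against 3.76%. These statements share arrays, so they are not independent of each other. On the deposited values that second comparison gave 33 genes above 0 and 26 below, with 0 at least 2-fold higher and 1, ZWINT, at least 2-fold lower. Over all genes the 2-fold differences between siPSF and untransfected LTAD were 728 higher and 693 lower, and 57 and 9402 on the deposited values, with 1061 and 595 after centring on medians.

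SiControl LTAD and LNCaP lay close together on the common scale. The median difference was 0.13, near the 0.08 of all genes, with 37 genes higher in siControl and 22 lower. SMC4 alone was 2-fold higher (1.69%, against 2.19% of all genes), 0 were 2-fold lower, against 2.34%, and 46 lay within 0.5, a share not counted over all genes. The standard deviation of the difference was 0.39 over the 59 genes and 0.53 over all genes. On the deposited values 54 of 59 (91.5%) were below 0, against 95.7% of all genes, with a median of -0.65 against -0.75 for all genes. There 6 (10.2%) were at least 2-fold lower (CCNA2, PLK4, MAD2L1, KNTC1, KIF15 and KIF23), against 26.8% of all genes. The 2-fold differences over all genes were 403 higher and 431 lower, 68 and 4928 on the deposited values, and 620 and 396 after centring on medians.

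**Figure D2:**
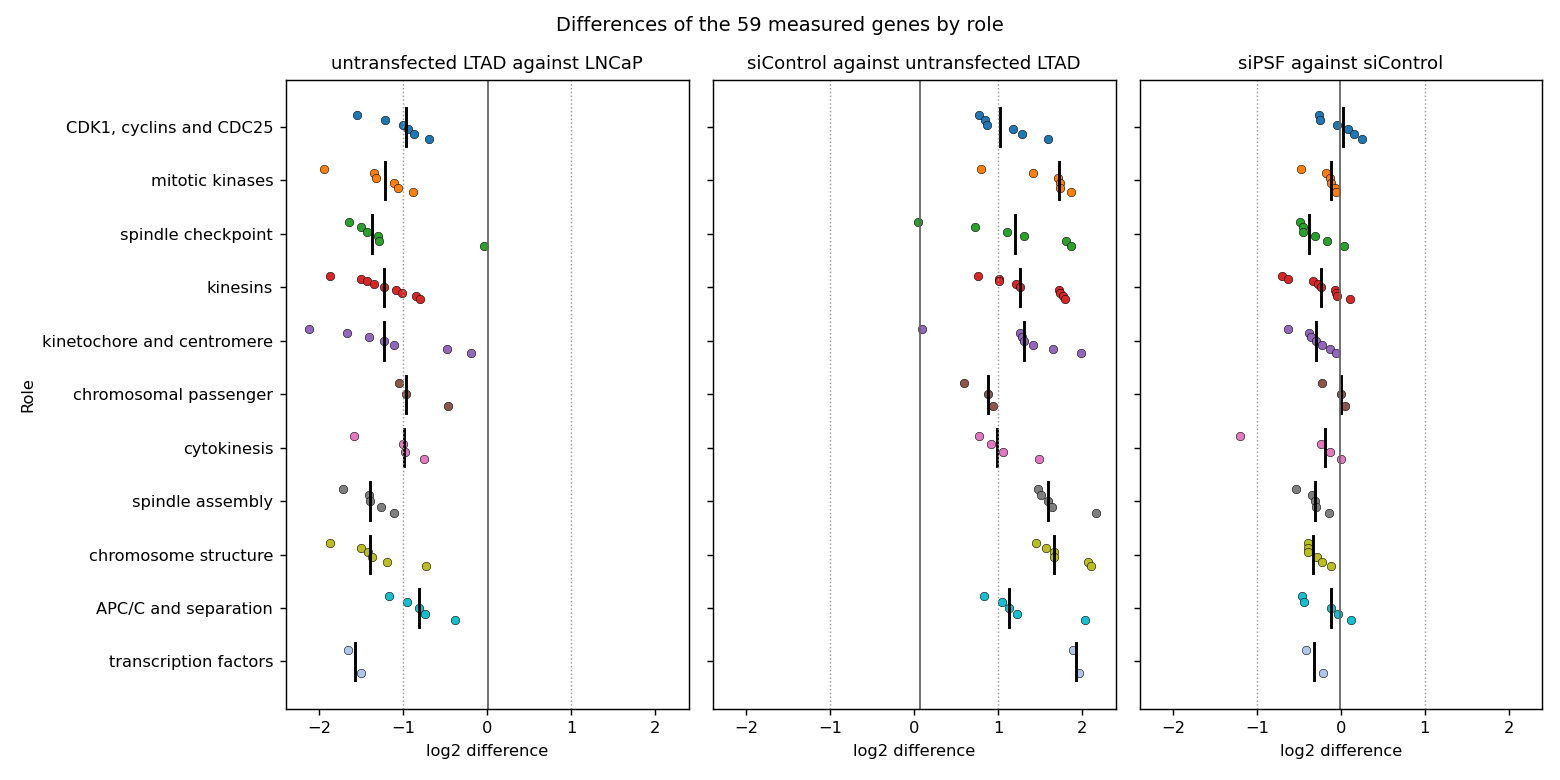
Log2 differences of the 59 genes (points), by role (rows), for untransfected LTAD minus LNCaP, siControl minus untransfected LTAD and siPSF minus siControl. Short black bars are role medians, the grey line is the median of all 18417 genes and dotted lines mark 2-fold. Every point of the left panel lies left of 0 and every point of the middle panel right of 0 on this scale (15 of the latter are below 0 on the deposited values), while the right panel clusters near 0 with ANLN far to the left at -1.21.

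CDK1, the kinase that drives mitotic entry, read 10.62 in LNCaP, 9.62 in untransfected LTAD, 10.48 with siControl and 10.24 with siPSF. It was 2.01-fold lower in untransfected LTAD than in LNCaP. CCNB1, the main cyclin partner of CDK1, read 9.38, 8.69, 9.87 and 9.96 in the same order, so that both transfected arrays exceeded LNCaP on the common scale. Both lay below LNCaP on the deposited values, siControl with a difference of -0.22 and siPSF at 9.56 against 9.72. CCNB2, a second B-type cyclin, had the widest swing of this group at 10.05, 8.49, 10.09 and 10.04. That is 2.93-fold lower in untransfected LTAD than in LNCaP and 3.02-fold higher with siControl (a difference of 0.71 on the deposited values). CCNA2, the cyclin of S phase and early mitosis, read 9.54, 8.32, 9.09 and 8.83 and did not come back to its LNCaP level in either transfected array. CDC25B and CDC25C are the phosphatases that switch CDK1 on. CDC25B read 8.19, 7.31, 8.60 and 8.76. CDC25C read 7.40, 6.46, 7.31 and 7.55, and its difference of 0.25 between siPSF and siControl was the highest of all 59 genes. In this group 3 of 6 genes were above 0 with siPSF (CCNB1, CDC25B and CDC25C) and the median was 0.02.

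Textbooks assign a pair of promoter elements to G2/M genes, the CCAAT box bound by NF-Y and the cell cycle homology region (CHR) bound by MuvB. Of the 6 genes for CDK1, the cyclins and the CDC25 phosphatases, CDK1 and CCNB2 held matches to both, CCNA2 and CCNB1 to CCAAT alone, and CDC25B and CDC25C to neither. Only the exact CHR core TTTGAA counted as a CHR match here, so a gene without one is not shown to lack a CHR. The promoters of 6 genes chosen by name are printed as examples. They cover CDK1 and B-type cyclins, a mitotic kinase, a kinesin and the APC/C activator, and not the other roles. BUB3 was chosen too, but no promoter window was at hand for it. Each window runs from 250 bases before the RefSeq start to 50 after it (GRCh38.p14, + strand, 5′ to 3′). Matches to CCAAT or to the CHR core TTTGAA on either strand are in capitals. CDK1 lies at chr10:60778081-60778380, CCNB1 at chr5:69166900-69167199, CCNB2 at chr15:59104896-59105195, PLK1 at chr16:23678639-23678938, CDC20 at chr1:43358731-43359030 and KIF11 at chr10:92592880-92593179.
CDK1: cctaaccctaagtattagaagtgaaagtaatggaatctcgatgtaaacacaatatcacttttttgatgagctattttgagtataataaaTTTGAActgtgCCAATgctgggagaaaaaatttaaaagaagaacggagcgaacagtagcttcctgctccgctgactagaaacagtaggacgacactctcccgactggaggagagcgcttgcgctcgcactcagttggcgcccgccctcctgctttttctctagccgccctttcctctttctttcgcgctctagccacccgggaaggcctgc
CCNB1: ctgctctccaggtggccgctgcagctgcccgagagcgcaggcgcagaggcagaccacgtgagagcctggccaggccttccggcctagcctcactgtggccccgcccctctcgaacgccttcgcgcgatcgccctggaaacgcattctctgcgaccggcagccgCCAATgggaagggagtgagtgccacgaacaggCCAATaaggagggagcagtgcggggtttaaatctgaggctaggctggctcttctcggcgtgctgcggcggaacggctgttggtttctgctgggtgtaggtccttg
CCNB2: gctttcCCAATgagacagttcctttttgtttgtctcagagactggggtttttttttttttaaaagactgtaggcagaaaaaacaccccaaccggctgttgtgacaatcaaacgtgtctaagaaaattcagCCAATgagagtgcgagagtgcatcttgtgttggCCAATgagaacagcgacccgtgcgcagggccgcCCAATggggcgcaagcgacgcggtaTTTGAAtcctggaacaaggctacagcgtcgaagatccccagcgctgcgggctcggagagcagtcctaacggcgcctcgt
PLK1: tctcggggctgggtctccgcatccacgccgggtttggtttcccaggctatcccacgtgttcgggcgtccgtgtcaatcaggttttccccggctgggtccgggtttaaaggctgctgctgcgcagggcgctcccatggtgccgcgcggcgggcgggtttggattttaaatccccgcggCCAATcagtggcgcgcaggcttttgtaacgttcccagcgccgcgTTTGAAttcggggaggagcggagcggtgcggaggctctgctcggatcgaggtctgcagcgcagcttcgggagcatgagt
CDC20: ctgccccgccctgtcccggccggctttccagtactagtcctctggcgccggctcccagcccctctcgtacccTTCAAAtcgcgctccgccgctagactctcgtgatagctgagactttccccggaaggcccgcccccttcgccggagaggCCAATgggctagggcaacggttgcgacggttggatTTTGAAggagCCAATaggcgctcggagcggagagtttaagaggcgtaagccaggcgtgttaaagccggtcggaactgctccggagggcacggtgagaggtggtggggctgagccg
KIF11: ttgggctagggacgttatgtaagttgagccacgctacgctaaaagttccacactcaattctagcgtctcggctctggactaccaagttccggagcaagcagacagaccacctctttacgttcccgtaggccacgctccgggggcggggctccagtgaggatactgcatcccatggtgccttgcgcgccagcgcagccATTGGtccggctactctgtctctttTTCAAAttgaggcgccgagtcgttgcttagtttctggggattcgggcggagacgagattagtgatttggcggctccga

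Counting from the start, CCNB2 held 4 CCAAT matches, at -244, -120, -87 and -54, and a CHR core at -29. PLK1 held a CCAAT at -73 and a CHR core at -29 as well. KIF11 held both on the other strand, at -53 and -28. CCNB1 had CCAAT at -87 and -55 and no TTTGAA, though its window holds TTTAAA. In CDK1 both matches lay farther out, at -150 and -161. CDC20 had CCAAT at -100 and -55 and CHR cores at -178 and -65. The promoter table held 51 of the 60 genes, and 36 of the 51 (70.6%) had a CCAAT on either strand, against 36.4% of 13771 promoters of protein-coding genes on the array and 35.7% of all 27305 promoters. TTTGAA was also present in 36 of 51, where the shares were 11.8% and 15.4%, and 27 of 51 had both (52.9%, against 4.86% and 6.08%). A CCAAT and a TTTGAA match overlapped in 2 of the 51. Of 56 promoters of other G2/M genes, 66.1% held CCAAT, 48.2% TTTGAA and 37.5% both. Among DNA replication genes, 20 of 35 promoters held CCAAT but 1 of 35 (2.86%) held TTTGAA, and among core subunits of the APC/C together with its coactivator FZR1 these were 5 and 3 of 13. In 27 of the 51 promoters a TTTGAA began between -50 and 24. These matches are letters in a window and no evidence of binding, and a missing match is no evidence that a gene lacks the element. The median difference of the measured genes between untransfected LTAD and LNCaP was -1.23 in the 35 with a TTTGAA match and -1.23 in the 15 without. It was 1.41 and 1.42 between siControl and untransfected LTAD, and -0.24 and -0.13 between siPSF and siControl.

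**Figure D3:**
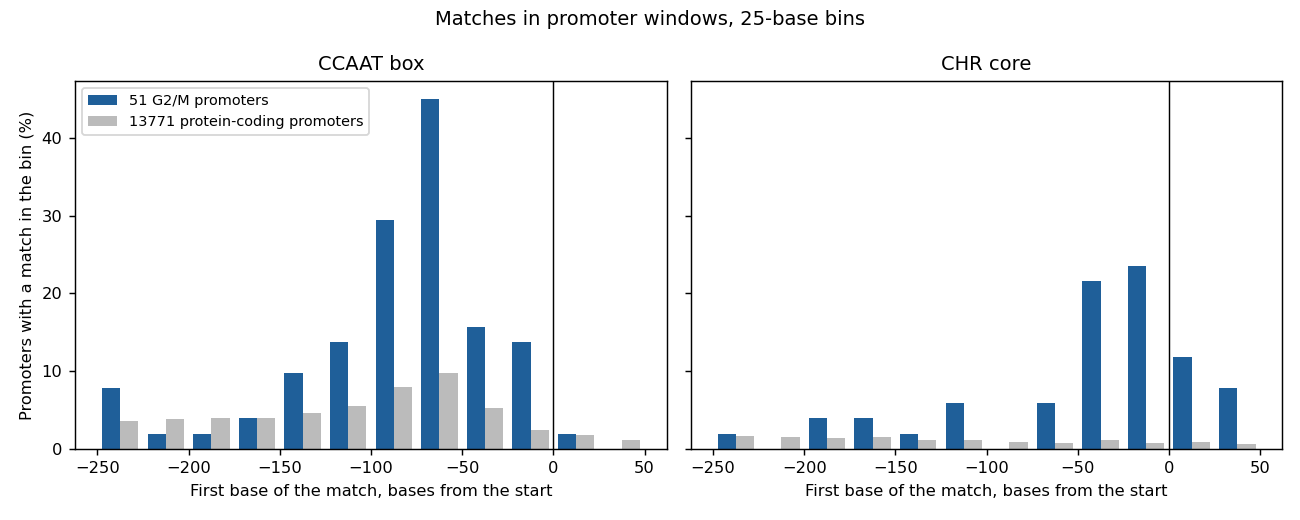
Share of promoters (y axis, percent) with a CCAAT or CHR core match beginning in each 25-base bin (x axis, bases from the RefSeq start), for 51 G2/M promoters (blue) and 13771 promoters of protein-coding genes on the array (grey). CCAAT peaks in the bin from -75 to -51 at 45.1% of G2/M promoters against 9.77%, and the CHR core in the bin from -25 to -1 at 23.5% against 0.741%.

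The mitotic kinases read low in untransfected LTAD and, apart from PLK4, at least 2.67-fold higher with siControl, while on the deposited values none of the 6 reached 2-fold and PLK4 was lower. PLK1, which acts at spindle poles, kinetochores and the midzone, read 10.61 in LNCaP, 9.50 in untransfected LTAD, 11.24 with siControl and 11.07 with siPSF. AURKA, the spindle pole Aurora kinase, read 8.73, 7.67, 9.38 and 9.32. AURKB, the kinase of the chromosomal passenger complex, read 8.89, 8.0, 9.73 and 9.60. These 3 kinases thus lay above LNCaP in both transfected arrays on the common scale, AURKB by 0.84 with siControl. SiControl differed from LNCaP on the deposited values by only 0.01 for PLK1, -0.09 for AURKA and 0.12 for AURKB. With siPSF all 3 lay below LNCaP there, at 10.71 against 10.91, 8.89 against 9.08 and 9.19 against 9.23. MELK, a maternal embryonic leucine zipper kinase, read 9.24, 7.29, 9.16 and 8.68. It was 3.85-fold lower in untransfected LTAD than in LNCaP, and its -0.48 between siPSF and siControl was the lowest of the 6 kinases. NEK2, which separates centrosomes, read 8.78, 7.46, 8.88 and 8.81, nearly equal in the 3 arrays other than untransfected LTAD. PLK4, the kinase of centriole duplication, read 8.32, 6.97, 7.77 and 7.65 and stayed below LNCaP after transfection. All 6 kinases were below 0 with siPSF, with a median of -0.12.

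Among the spindle checkpoint genes BUB3 differed least. It read 10.09, 10.05, 10.10 and 10.14 in LNCaP, untransfected LTAD, siControl and siPSF, a spread of at most 0.09, whereas its partner kinase BUB1 read 9.09, 7.58, 9.45 and 8.99. BUB3 holds BUB1 and BubR1 at the kinetochore. BUB1B, which encodes BubR1, read 9.56, 8.25, 9.56 and 9.40. TTK, the kinase Mps1 that starts checkpoint signalling, read 7.59, 5.94, 7.74 and 7.29, and its level in untransfected LTAD was under 7.23. MAD2L1, the MAD2 protein that inhibits CDC20, read 8.78, 7.49, 8.22 and 7.73. Its siPSF level lay closer to untransfected LTAD than to LNCaP, and its difference of -0.56 between siControl and LNCaP was the lowest of all members. KNTC1, the ROD subunit that brings dynein to kinetochores, read 8.60, 7.17, 8.27 and 7.95. The group's median was -1.37 for untransfected LTAD against LNCaP and -0.38 for siPSF against siControl, the lowest role median of the latter comparison.

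The 9 kinesins are the microtubule motors of spindle assembly and division. KIF11, also called Eg5, pushes spindle poles apart and read 9.04 in LNCaP, 7.17 in untransfected LTAD, 8.90 with siControl and 8.20 with siPSF. Its siPSF difference of -0.70 was the second lowest after ANLN. KIF20B, a kinesin of the midzone, read 7.14, 6.13, 7.86 and 7.23, a difference of -0.63 with siPSF, though 3 of these readings were under 7.23. KIF14, which localises citron kinase to the midbody, read 7.77, 6.34, 8.14 and 7.90. KIF15, a partner of KIF11 in spindle bipolarity, read 7.47, 5.96, 7.18 and 6.91. KIF18A, which damps chromosome oscillation, read 7.23, 6.39, 7.40 and 7.35. KIF20A, the motor MKLP2 that carries Aurora B to the midzone, read 9.04, 7.81, 9.59 and 9.53 and was 3.43-fold higher with siControl than in untransfected LTAD. KIF23, the MKLP1 motor of centralspindlin, read 8.43, 7.34, 8.10 and 8.03. KIF2C, a depolymerase also named MCAK, read 8.38, 7.03, 8.30 and 8.41 and was the kinesin above 0 with siPSF, at 0.11. KIF4A, a chromokinesin, read 8.23, 7.43, 8.44 and 8.11. A second probe set named KIF4A together with its near-identical copy KIF4B and was left out, so the KIF4A level is uncertain to that extent. Over the group, 7 of 9 were 2-fold lower in untransfected LTAD than in LNCaP and 8 of 9 were 2-fold higher with siControl than in untransfected LTAD (0 of 9 on the deposited values, where KIF15, KIF18A, KIF23 and KIF4A were lower). KIF11, KIF14, KIF15, KIF18A, KIF20B and KIF2C were under 7.23 in untransfected LTAD, so both counts rest in part on levels not shown to be above background.

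Kinetochore and centromere genes ranged widely between untransfected LTAD and LNCaP, from -1.67 for CENPK to -0.20 for ZWINT among those at or above 7.23 in all 4 arrays. SPC25, a subunit of the NDC80 complex that grips microtubules, read 8.43, 6.30, 8.29 and 8.06. Its difference of -2.13 between untransfected LTAD and LNCaP rests on a level under 7.23 in untransfected LTAD. NDC80 and NUF2, of the same complex, read 8.61, 7.38, 8.80 and 8.74, and 8.70, 7.29, 8.55 and 8.25. CENPK, of the constitutive centromere network, read 9.22, 7.55, 9.20 and 8.57, a difference of -0.63 with siPSF. CENPE, a kinetochore kinesin, read 6.85, 6.37, 7.68 and 7.30, so that both transfected arrays exceeded both untransfected ones on the common scale. That order did not hold on the deposited values. There siControl lay 0.02 under LNCaP (-0.02), and siPSF, at 6.82, lay under LNCaP at 7.23 and untransfected LTAD at 7.05. CENPF, a large protein of the outer kinetochore, read 9.84, 8.73, 10.01 and 9.88. ZWINT, which links the outer kinetochore to the ROD complex, read 9.10, 8.90, 8.99 and 8.63, with a range of 0.20 over the 3 arrays other than siPSF. All 7 measured genes of this group were below 0 with siPSF, with a median of -0.30.

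The chromosomal passenger proteins anchor Aurora B on chromatin and at the midzone, and 0 of their 3 genes differed by 2-fold between siControl and untransfected LTAD. BIRC5, which encodes survivin, read 8.66, 7.62, 8.56 and 8.32. A second BIRC5 probe set read between 4.59 and 5.28, under the median level in every array, and did not follow the first, with a difference of -0.31 between siControl and untransfected LTAD. INCENP, the scaffold, read 8.38, 7.92, 8.51 and 8.51. CDCA8, which encodes borealin, read 8.69, 7.72, 8.60 and 8.65. Their median was -0.97 for untransfected LTAD against LNCaP, just under 2-fold.

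ANLN encodes anillin, which organises actin and septins in the cleavage furrow. It read 9.60 in LNCaP, 8.01 in untransfected LTAD, 9.50 with siControl and 8.29 with siPSF, and the last of these was the only siPSF level in the list at least 2-fold under siControl (2.31-fold, -1.21, and -1.27 on the deposited values). The siPSF level of ANLN was 0.29 above untransfected LTAD, while the median gene of the list was 1.15 above it. These differences were -0.72 and 0.17 on the deposited values. The other cytokinesis genes did not share this. PRC1, which bundles midzone microtubules, read 9.51, 8.53, 9.30 and 9.06. ECT2, the exchange factor that activates RhoA in the furrow, read 9.50, 8.50, 9.56 and 9.43. RACGAP1, of centralspindlin, read 9.79, 9.03, 9.95 and 9.95. The differences of these 3 genes with siPSF were -0.24, -0.13 and 0.00.

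Spindle assembly genes were uniform, with all 5 at least 2-fold lower in untransfected LTAD than in LNCaP and all 5 at least 2-fold higher with siControl than in untransfected LTAD (1 of 5, HMMR, on the deposited values, at 1.09). HMMR, a hyaluronan receptor that also binds spindle poles, read 7.97, 6.56, 8.73 and 8.42, and its difference of 2.17 between siControl and untransfected LTAD rests on a level under 7.23 in the latter. TPX2, the activator of Aurora A, read 9.56, 8.44, 9.92 and 9.62. ASPM, a spindle pole protein, read 7.75, 6.49, 7.99 and 7.46, also under 7.23 in untransfected LTAD. NUSAP1, which bundles microtubules near chromatin, read 10.47, 8.75, 10.39 and 10.05. DLGAP5, which steadies kinetochore fibres, read 9.38, 7.98, 9.57 and 9.43. With siPSF the 5 genes ran from -0.53 for ASPM to -0.14 for DLGAP5.

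Genes of mitotic chromosome structure were likewise 2-fold higher with siControl than in untransfected LTAD in 6 of 6 (2 of 6, NCAPH and SMC4, on the deposited values). TOP2A, the topoisomerase that untangles sister chromatids, read 10.22, 8.71, 10.29 and 10.06. MKI67, the Ki-67 antigen of proliferating cells, read 9.09, 7.72, 9.17 and 8.78 and was 2.59-fold lower in untransfected LTAD than in LNCaP. SMC2 and SMC4 form the condensin core with NCAPG and NCAPH of condensin I. NCAPG read 9.15, 7.28, 8.94 and 8.55. NCAPH read 9.07, 7.65, 9.75 and 9.63, and its siPSF level was the farthest of the list above untransfected LTAD, at 1.98 (0.99 on the deposited values). SMC2 read 8.80, 7.61, 9.27 and 8.88. SMC4 read 8.99, 8.25, 10.33 and 10.04, so that both transfected arrays exceeded LNCaP by at least 2-fold on the common scale, by 1.34 with siControl. Neither reached 2-fold on the deposited values, where the siControl difference was 0.64 and SMC4 read 9.64 with siPSF and 9.32 in LNCaP. With siPSF the 6 genes ran from -0.39 to -0.12.

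Genes that act at the exit from mitosis had the smallest shift between untransfected LTAD and LNCaP, with a median of -0.82. CDC20, the activator of the APC/C, read 9.69 in LNCaP, 9.30 in untransfected LTAD, 10.53 with siControl and 10.49 with siPSF. It was closer between the untransfected arrays than between the transfected and untransfected ones, but not on the deposited values, where untransfected LTAD differed from LNCaP by -0.20 and siControl by 0.16. UBE2C, the ubiquitin-conjugating enzyme of the APC/C, read 8.13, 7.32, 8.36 and 8.24. PTTG1, or securin, which holds separase inactive, read 9.12, 8.16, 8.99 and 8.55. ESPL1, or separase, which cuts cohesin, read 7.58, 6.83, 7.96 and 8.09. Securin and its partner separase thus lay on opposite sides of 0 with siPSF, at -0.44 and 0.12. CDCA3, which targets the kinase WEE1 for destruction, read 8.22, 7.06, 9.09 and 8.62.

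Both transcription factors of the programme ran the same way as the rest. FOXM1 read 9.76, 8.25, 10.21 and 10.00, and MYBL2, or B-Myb, 9.81, 8.16, 10.05 and 9.63. In untransfected LTAD they were 2.84-fold and 3.15-fold lower than in LNCaP, and with siControl 3.89-fold and 3.73-fold higher than in untransfected LTAD. The latter differences were 1.06 and 0.98 on the deposited values. Their siPSF differences were -0.22 and -0.42.

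Further genes of the pathway showed how far the pattern reached. Of 66 other measured G2/M genes, 66 were lower in untransfected LTAD than in LNCaP, 33 of them at least 2-fold, against 2.55% of all genes, with a median of -0.99. These counts were 63 and 25 on the deposited values, where 22.8% of all genes were lower and 1.63% at least 2-fold lower. CEP55, CENPI and CDCA2 had differences of -2.29, -2.02 and -1.96, each with a level under 7.23 in untransfected LTAD, and CENPQ, CCNF and PSRC1 were nearest to 0 at -0.20, -0.22 and -0.23. Against untransfected LTAD 43 of the 66 (65.2%, against 4.69% of all genes) were at least 2-fold higher with siControl. On the deposited values 3 were (against 0.413% of all genes) and 23 were below 0, where 95.7% of all genes were. On the common scale the differences included PBK at 2.58, CEP55 at 2.36 and CKS2 at 2.0 (CEP55 from a level under 7.23), while DSN1, ZW10 and CENPQ lay at 0.00, 0.10 and 0.12. With siPSF 62 of 66 (93.9%, against 51.9% of all genes) were below siControl and 0 reached 2-fold, with MTFR2 and FBXO5 lowest at -0.76 each, then CENPI at -0.67, and CCNF, TROAP and PSRC1 highest at 0.28, 0.07 and 0.06.

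The subunits of the APC/C itself, which are present through the cycle, did not share the shift. Over 13 genes, which include the APC/C coactivator FZR1 beside core subunits, the median was 0.06 for untransfected LTAD against LNCaP, -0.01 for siControl against untransfected LTAD and -0.05 for siPSF against siControl, and 0, 1 and 0 of them differed by 2-fold. The gene that did was CDC26, at 1.04. Of 15 genes for MuvB, its pocket protein and E2F partners, CDK inhibitors and WEE1, the median was -0.16, 0.26 and 0.05 in the same comparisons. LIN9, a MuvB subunit, was 1.14 lower on the log2 scale in untransfected LTAD than in LNCaP (-1.14). CDKN1A, the p21 inhibitor of CDKs, ran opposite to the mitotic genes between LNCaP, untransfected LTAD and siControl, at 8.81, 9.66 and 8.72, and read 9.55 with siPSF. WEE1, the kinase that holds CDK1 inactive, read 9.18, 8.20, 8.47 and 8.97. DNA replication genes, as the nearest class, had medians of -1.09, 0.97 and -0.26 over 41 genes, beside -1.21, 1.41 and -0.23 for the 59 mitotic ones. Whether these lists differ could not be tested with single arrays.

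**Figure D4:**
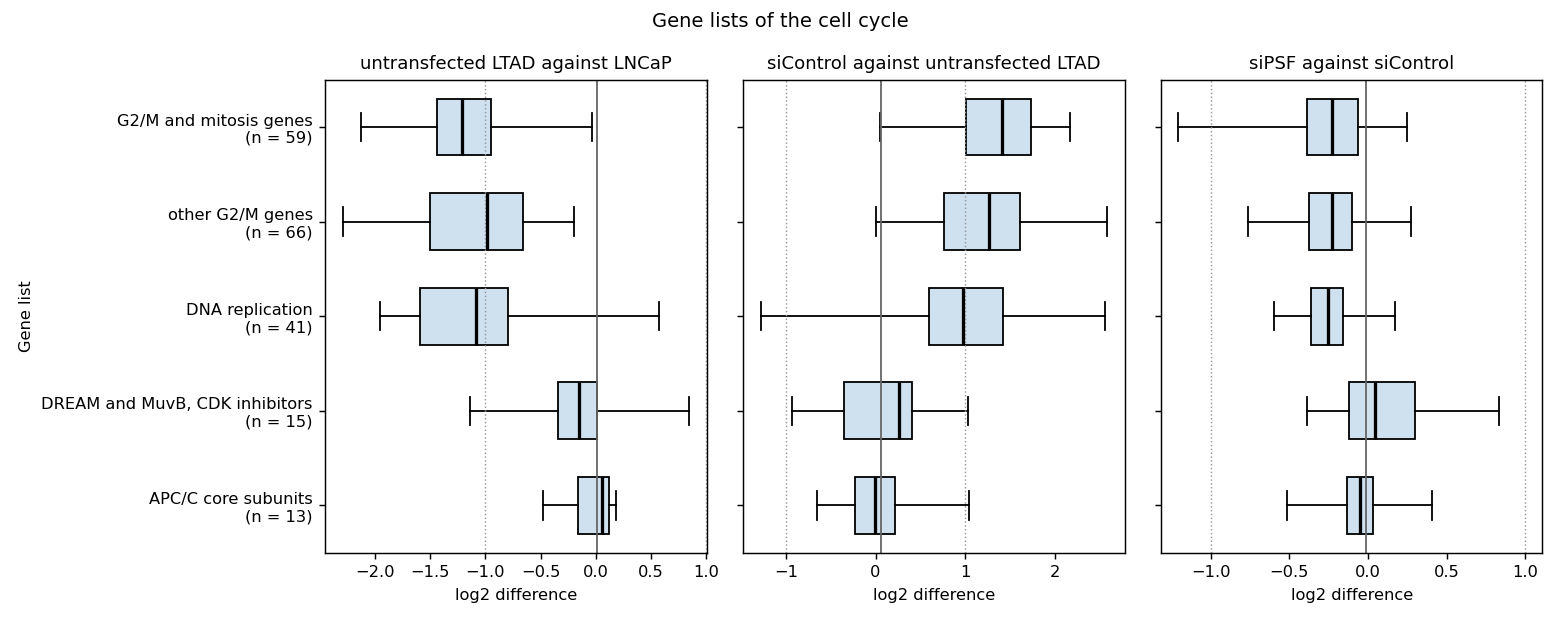
Log2 differences of 5 gene lists in the 3 main comparisons. Boxes span the middle 50% of genes with the median as a bar, whiskers reach the lowest and highest gene, the grey line is the median of all genes and dotted lines mark 2-fold. The G2/M, other G2/M and replication boxes lie far from the grey line in the left and middle panels, while the core APC/C subunits (a list that includes the coactivator FZR1) stay on it, with medians of 0.06 and -0.01.

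Untransfected LTAD against LNCaP and siPSF against siControl share no array, and the differences of the 59 genes can be set side by side. Over the 59 genes they correlated with Pearson's r = 0.43 and Spearman's rho = 0.47, and over all 18417 genes with 0.05 and 0.10. Without ANLN the values over the remaining 58 were 0.43 and 0.45. Genes measured on the same arrays are not independent replicates, so these values describe the list. Between gene span and the siPSF difference rho was -0.34 over the 59 and -0.12 over 18392 genes with a known span. Over the same 59 genes rho was -0.33 for the difference of untransfected LTAD from LNCaP and 0.21 for that of siControl from untransfected LTAD. The 29 genes longer than the list's median of 33.8 kb had a median siPSF difference of -0.31 and the 30 others -0.15. ANLN spans 63.9 kb and KIF11 62.3 kb, while CENPK, at -0.63, spans 67.5 kb and MAD2L1, at -0.49, spans 11.2 kb. The part of gene length in the siPSF difference was not tested.

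**Figure D5:**
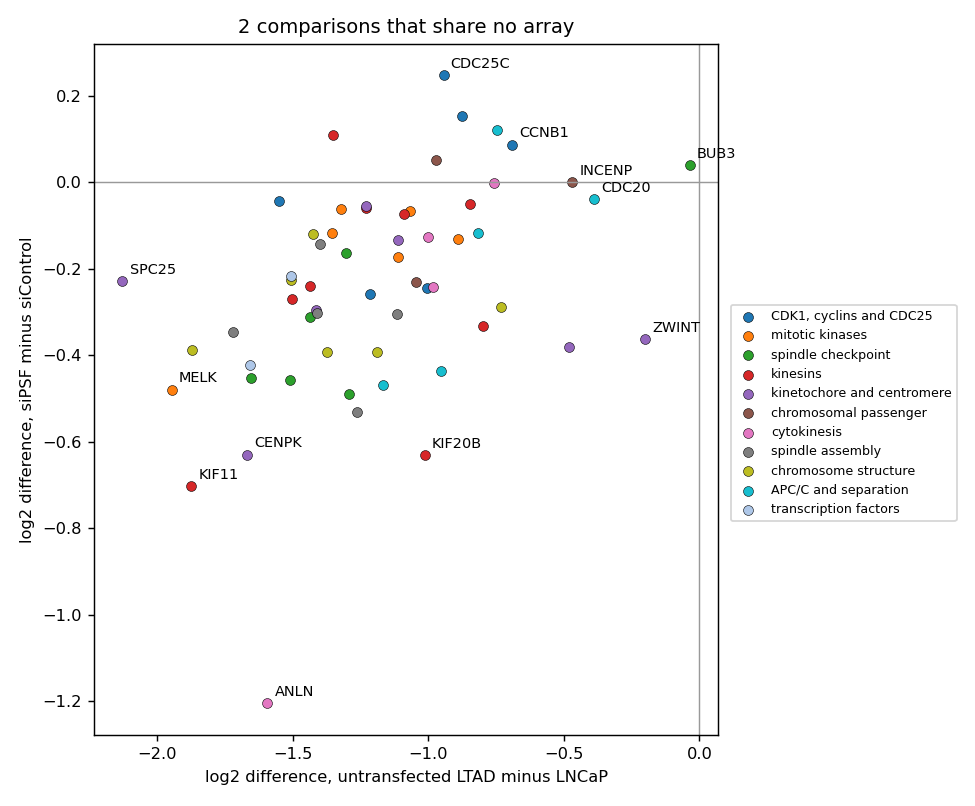
Log2 difference of each of the 59 genes between untransfected LTAD and LNCaP (x axis) and between siPSF and siControl (y axis), coloured by role, with 12 genes labelled. Points run from lower left to upper right with wide scatter (r = 0.43), and ANLN lies below the rest at -1.59 and -1.21.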

How the data were processed

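Each of 4 conditions was measured with 1 Affymetrix array. The values deposited by the authors are log2 probe set levels. The submitters' processing notes name RMA and the Affymetrix Expression Console; versions and settings are not given in the sources used here. Gene names came from GEO's annotation of the platform, updated through RefSeq (GRCh38.p14). Of 33297 probe sets, 19460 had 1 symbol, 1754 had several and named no gene, and 12083 were unnamed here, which left 18417 genes, with symbols updated through 19429 matched Entrez IDs. The 4 arrays were quantile-normalized over all probe sets, with tied values averaged, and differences were taken between pairs of arrays in 5 comparisons. No p-value or error could be computed. Genes at least 2-fold apart were counted over all genes, with no filter on low values. Genes were given with every array's level where they had the highest or lowest difference of their role in a main comparison, or were CDK1, CCNB1, FOXM1, MYBL2, MKI67 or TOP2A; the 14 others were added so that each member is shown. Roles were assigned by textbook function. Of the other pathway genes, the 3 highest and 3 lowest were named. Members and lists were chosen with earlier results of these data known. Promoter windows came from RefSeq's table for GRCh38.p14 and were searched for CCAAT and TTTGAA on both strands. Gene spans came from the same assembly. Python 3.11.15, pandas 2.3.3, NumPy 2.4.6 and matplotlib 3.10.9 were used. The calculation was tested on simulated data. Alternatives were the deposited values, other scalings, filters on low values, the mean of all probe sets, a 1.5-fold threshold, another control array, and other promoter windows.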

Additional observations from a re-analysis of the deposited data

How the results depend on the processing

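Measured from the median of all genes, the members' median moved by at most 0.1 under every other scaling, filter and probe set rule. This held in all 5 comparisons. The deposited, median-centred and percentile-scaled values differ only by a constant per array, which this measure removes. They gave the same value by construction, such as -0.27 for siPSF against siControl. They thus count as 1 alternative to quantile normalization, and their agreement with each other shows nothing about stability. The spread of replicates is unknown, so 0.1 on the log2 scale served as the limit. What changed the members' median was the array used as control. SiPSF lay 0.22 below siControl (-0.22) but 1.09 above untransfected LTAD, with 0 genes 2-fold lower in place of 1, and LTAD lay 1.23 below LNCaP (-1.23) when untransfected but 0.05 above it with siControl, with 0 genes 2-fold lower in place of 40. On the deposited values, where the transfected arrays are dimmer as a whole, the members at least 2-fold higher numbered 5 in place of 45 for siControl against untransfected LTAD, 0 in place of 36 for siPSF against untransfected LTAD and 0 in place of 1 for siControl against LNCaP. The last count was 4 with median-centred arrays and 10 at 1.5-fold, against 9.89% of all genes, and 4 genes were 1.5-fold lower with siPSF than with siControl, against 2.59%. In the opposite direction the deposited values gave 6 members at least 2-fold lower with siControl than in LNCaP, in place of 0, against 26.8% of all genes. They gave 1 member at least 2-fold lower with siPSF than in untransfected LTAD, in place of 0, against 51.0% of all genes. The members lowest in untransfected LTAD numbered 33 in place of 58. On those values 95.7% of all genes were lower with siControl than in untransfected LTAD. In the window from 100 bases before the start, 60.8% of member promoters held CCAAT, against 23.4% of protein-coding promoters, and 64.7% held TTTGAA, against 4.73%. In the full window 82.4% held TTTGAA or TTTAAA, against 18.9%. Each member share lay inside the exact 95% binomial interval of 56.2% to 82.5%. These are recounts of the same promoters, so lying inside a sampling interval does not show that the shares are stable. The relation between the comparisons without ANLN was examined after seeing the data. No detection call was at hand, so signal over background limits 16 members in untransfected LTAD. With 1 array per condition no array could be left out, and no paired analysis was possible because the groups hold no replicates.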
